A study of Rattus norvegicus with 84 samples.

Results

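The comparison described here was of plasma extracellular vesicle (EV) mRNA between stroke rats given human neural stem cells (hNSCs group) and stroke rats given saline (control group), 31 days after stroke. It rests on 6 of the 84 libraries of the series, 3 per group, chosen by tissue, RNA type, treatment, and day. All animals were adult male Sprague-Dawley rats, wild type, 8 to 12 weeks old, and every rat of both groups had a transient occlusion of the middle cerebral artery for 90 min. On day 3 after stroke, the hNSCs group received 200000 cells of a line derived from human fetal telencephalon into the artery and the control group received saline, so day 31 was 28 days after injection. Each library came from a separate animal, and the graft was of another species. The count table used here holds rat genes, and the study's separate alignment of plasma reads to the human genome was not analysed here. The other 15 plasma mRNA libraries (healthy rats, and both groups at days 4 and 10) are used below for context and for the shared estimate of the spread.

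EVs are membrane-bound particles that cells release into body fluids. In blood, reticulocytes shed vesicles as they mature into red cells and carry abundant hemoglobin mRNA, platelets release many vesicles on activation, and the liver secretes most plasma proteins. The brain is a further possible source, since EVs can pass between brain and blood. In bulk EV RNA, fewer vesicles from a cell type and less RNA per vesicle or cell cannot be told apart, and RNA that co-purifies with EVs is read in the same way.

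The question was whether plasma EV mRNA still differed between hNSCs and control rats 28 days after injection. No gene reached an adjusted p under 0.05 with more than a 1.5-fold change among 14720 annotated genes tested with edgeR's quasi-likelihood test (0 called, 0.0%). The lowest adjusted p was 0.0615, for Pde7b. In simulated counts with the spread of the real libraries, this test recovered 1% of 4-fold and 28% of 16-fold changes. The 0 calls therefore do not show that the groups were alike. At an unadjusted p under 0.05, 314 genes were higher (2.13%) and 947 lower (6.43%) in the hNSCs group. DESeq2 on the same counts called 1668 genes (11.3%), 328 higher (2.23%) and 1340 lower (9.1%), of which 1516 had no counts at all in 1 of the groups. The values below are therefore given as levels in each library, and the folds as estimates that did not pass the main test.

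The 6 count columns held between 30594789 and 49824782 counts. Annotated genes took 61.6 to 63.7% of the counts in the control group and 56.3 to 64.6% in the hNSCs group, and the remainder fell in entries that the table names as new genes. The mean difference of -1.02 percentage points was smaller than the spread between libraries (exact two-sided permutation test, p = 1.0, where 3 against 3 libraries allow no p below 0.1). Counts were found for 12277, 12555, and 10006 annotated genes in the control libraries and for 10271, 8688, and 9819 in the hNSCs libraries (exact p = 0.2). Control replicate 3 was less like control replicates 1 and 2 than these were like each other. Its log2 levels correlated with hNSCs replicates 1 to 3 at 0.79, 0.75, and 0.75, against 0.72 and 0.73 with control replicates 1 and 2, which correlated with each other at 0.86. The hNSCs libraries correlated with each other at 0.76 (replicates 1 and 2), 0.77 (1 and 3), and 0.72 (2 and 3). Correlations as low as those of control replicate 3 with its group were thus also found among the hNSCs libraries. Control replicate 3 nonetheless correlated more with each hNSCs library than with either other control library. These correlations are across genes, which are not independent replicates.

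Hemoglobin transcripts were the most abundant annotated mRNAs in these vesicles and took a larger share in every hNSCs library than in any control library. They made up 6.81, 10.3, and 17.4% of annotated counts in the control group (11.5% ± 5.40, SD, n = 3) and 28.5, 22.0, and 22.0% in the hNSCs group (24.2% ± 3.75, SD, n = 3). The groups did not overlap, and the difference of 12.7 percentage points had an exact permutation p = 0.1, the smallest that 3 against 3 can give. Control replicate 3, the library with the highest control share, lay closest to the hNSCs range. Without any 1 of the 6 libraries, the difference lay between 10.3 and 15.6 percentage points (exact permutation p = 0.2 in each case, for 2 against 3 libraries).

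The same share differed across the plasma series. In healthy rats it was 7.41, 4.22, and 10.7%. At day 4 it was 3.42, 2.62, and 1.71% in the control group and 2.03, 0.974, and 1.43% in the hNSCs group, which overlapped (exact permutation p = 0.2). At day 10 it was 14.1, 17.9, and 17.4% in the control group and 28.4, 25.6, and 12.6% in the hNSCs group, with 1 hNSCs library below all 3 controls (exact permutation p = 0.4). Day 31 was thus the day on which all 3 hNSCs libraries lay above all 3 controls, whereas the control group at day 10 reached shares above the day 31 controls 1 and 2.

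**Figure D1:**
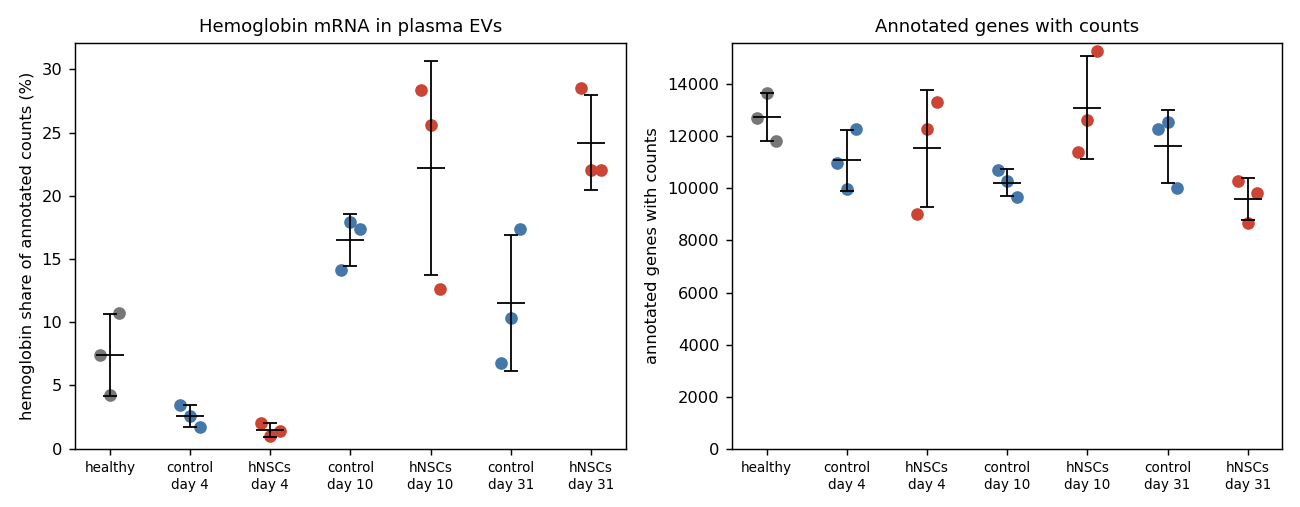
Hemoglobin share of annotated counts in percent (left) and number of annotated genes with counts (right) in the 7 groups of plasma mRNA libraries; points are libraries, lines the mean ± SD of 3. At day 31 the hNSCs libraries sit at 22.0 to 28.5% and the control libraries at 6.81 to 17.4%.

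Values of single genes are annotated counts per 1000000 (CPM), scaled between libraries by TMM, and log2 fold changes are for hNSCs over control with their SE. Hba2, an alpha-globin gene, had 25598, 36957, and 68139.5 CPM in the control group and 133807, 83755, and 109713 CPM in the hNSCs group. Every hNSCs library exceeded every control library, with a log2 fold change of 1.32 ± 0.42 (adjusted p = 0.484). Hba1, its near-identical copy, gave 1.41 ± 0.46 (adjusted p = 0.491). Hbb, a beta-globin gene, had 4705, 6968, and 13146 CPM against 27517, 17239.5, and 22973 CPM, a log2 fold change of 1.45 ± 0.44 (adjusted p = 0.46). Globin copies share most of their sequence, and how reads were split between them is not stated, so the values of single copies are uncertain. Their sum does not depend on such a split. Whether shared reads were dropped or counted more than once is not stated either, and both would change the sum.

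Of 14 hemoglobin names listed, 11 were in the table and 8 passed the filter on low counts. All 8 were above control in every hNSCs library, beside 4.6% of all genes tested and 8.99% of those with counts in all 6 libraries. All 8 had an unadjusted p under 0.05, beside 2.13% of all genes. Since these copies share most of their sequence, they are not 8 separate observations. Their median log2 fold change was 1.37, beside a median of -0.10 over all genes tested. DESeq2 called 8 of 8 higher, beside 2.23% of all genes. The median stayed between 1.10 and 1.89 in the other fits and without any 1 library.

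Genes of the red cell membrane and of heme synthesis were higher along with the globins. All 26 genes on this list were tested, and all 26 had a positive log2 fold change, beside 6109 of all 14720 genes. Of the 26, 20 were above control in every hNSCs library, beside 4.6% of all genes and 8.99% of those with counts in all 6 libraries. At an unadjusted p under 0.05, 10 were higher (beside 2.13%). The median was 1.47, and the 6 genes whose groups overlapped were Gypc, Rhag, Tfrc, Slc25a37, Car1, and Tspo2. Their summed level was 4092, 5948, and 9851 CPM in the control group and 23693, 15270.0, and 19609 CPM in the hNSCs group, so control replicate 3 again was the highest control. DESeq2 called 7 of the 26 higher (Alas2, Bnip3l, Bpgm, Car2, Epb41, Fech, and Sptb), beside 2.23% of all genes. In the healthy group the list summed to 3834, 4041, and 5826 CPM.

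Alas2, the first enzyme of heme synthesis in red cells, had 1075, 1581, and 2631 CPM against 6223, 3892, and 5359.8 CPM (log2 fold change 1.55 ± 0.51, adjusted p = 0.494). Fech, which inserts iron into the porphyrin ring, had 193, 353, and 578 CPM against 1463, 1002, and 1079 CPM (1.66 ± 0.49, adjusted p = 0.46). Both were lowest in control replicate 1 and highest in hNSCs replicate 1. Slc4a1 encodes band 3, the anion exchanger of the red cell membrane. It had 311, 584, and 846 CPM against 2852, 1754, and 2189.7 CPM, without overlap but with a large SE (1.96 ± 1.18, adjusted p = 0.551). Epb41, protein 4.1 of the membrane skeleton, had 476, 645, and 926 CPM against 2544, 1103, and 2183 CPM (1.51 ± 0.48, adjusted p = 0.468).

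Bpgm makes the 2,3-bisphosphoglycerate that lowers the oxygen affinity of hemoglobin. It had 466, 731, and 1346 CPM in control and 2950.4, 1846, and 2260.3 CPM in hNSCs libraries (1.47 ± 0.48, adjusted p = 0.494). Bnip3l, needed for the removal of mitochondria from reticulocytes, had 308, 390.4, and 654 CPM against 840.4 to 1239 CPM (1.26 ± 0.39, adjusted p = 0.462). Trim58, a ubiquitin ligase of late erythroid cells, had 19.0, 28.2, and 27.3 CPM against 245, 151, and 59.5 CPM (2.61 ± 1.07, adjusted p = 0.522). The erythroid transcription factors Gata1 and Klf1 were at low levels, with 8.91 to 29.5 CPM against 31.3 to 55.3 CPM for Gata1 and 5.5 to 38.5 CPM against 40.5 to 64.7 CPM for Klf1. All of these genes were without overlap between the groups.

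Since genes of the erythroid lists were higher together, their promoters were searched for the binding letters of GATA factors (AGATAA or AGATAG and likewise TGATAA or TGATAG, each on both strands) from 250 bases before to 50 after the gene start. The sequences are RefSeq's for the GRCr8 assembly, another build than the Rnor_6.0 of the counts. The following 30-base stretches are printed in transcript direction with the matched letters in capitals, because these genes carry the erythroid pattern described above. They lie at chr1:167643626-167643655 (minus strand, beta-globin Hbb-b1), chrX:22895302-22895331 (plus strand, Alas2), chr3:128451748-128451777 (minus strand, Epb42), and chr10:43523295-43523324 (plus strand, Trim58).
Hbb-b1: gagtagttatggCTATCAtctctgaagcct
Alas2: ccttgctgagaaAGATAAtgaggggggaat
Epb42: agctggtctaggAGATAGcagcagggaggg
Trim58: agccagcccaggAGATAAcaccctcagggc

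The letters were present in 4 of 5 hemoglobin promoters found by symbol (80.0%) and in 10 of 15 of the erythroid list (66.7%), beside 31.8% of all 27457 gene symbols in the promoter table. They were present in 9 of 17 platelet promoters (52.9%), 8 of 18 liver promoters (44.4%), and 1 of 9 promoters of the genes with the smallest p among those higher (11.1%). A match describes letters in a window and is not a measured binding site.

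The 10 genes with the smallest p among those higher in the hNSCs group were Pim1, Dus2, Riok3, Usp15, Galnt10, Pip4k2a, Cd36, Rnf10, Fam104a, and Ncoa4. None passed the test in edgeR, while DESeq2 called all of them, beside 2.23% of all genes called higher. They were picked by their p in the same counts, so the DESeq2 calls are not separate support. Pim1, a serine/threonine kinase of cytokine signaling, had 25.8, 12.6, and 14.9 CPM in the control group and 117, 154, and 71.9 CPM in the hNSCs group (2.69 ± 0.59, adjusted p = 0.203). Riok3, an atypical kinase known from erythroid maturation, had 444, 487, and 747 CPM against 1984, 1326, and 1929.9 CPM (1.64 ± 0.42, adjusted p = 0.362). In both genes the lowest hNSCs library was well above the highest control library. Dus2, a tRNA-modifying enzyme, was at 0 in all controls and in hNSCs replicate 1, with 7.39 and 14.5 CPM in hNSCs replicates 2 and 3.

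Ncoa4, the receptor that delivers ferritin for breakdown, had 407, 484, and 653 CPM against 2162, 958, and 1440.4 CPM. Rnf10, a ubiquitin ligase, had 735, 1025, and 1696 CPM against 3648, 2985, and 3609 CPM. Usp15, a deubiquitinase, had 167, 129, and 329.5 CPM against 915, 439, and 638 CPM. All of these were separate between groups, with control replicate 3 the highest control. Cd36, the fatty acid and thrombospondin receptor of platelets, monocytes, and endothelium, had 44.4, 66.2, and 71.8 CPM against 162, 143, and 251 CPM. Pip4k2a, a phosphoinositide kinase, had 50.8, 66.6, and 114 CPM against 323, 265, and 235 CPM.

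**Figure D2:**
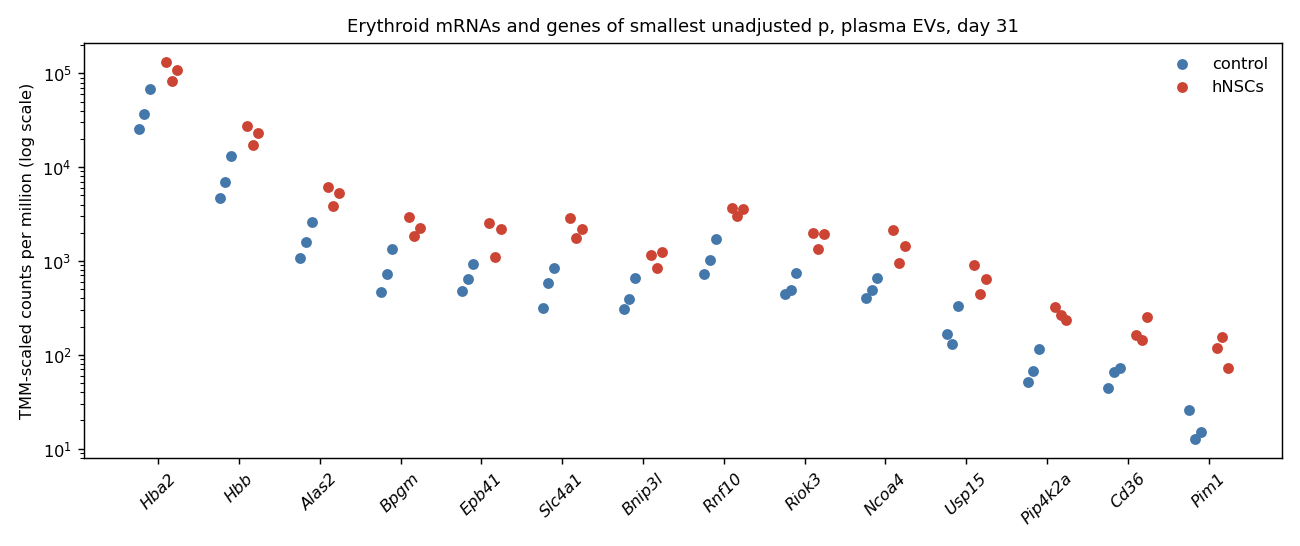
CPM on a log axis of 14 genes in the 3 control and 3 hNSCs plasma libraries at day 31; each point is a library. In each of the genes drawn, all hNSCs points lie above all control points; for Alas2 the values are 1075 to 2631 CPM against 3892 to 6223 CPM.

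On the lower side, most genes with small p were low-level transcripts with no counts in any hNSCs library. Across all genes tested, 282 had counts in all 3 control libraries and none in the hNSCs libraries (1.92%), and 8 had the reverse (0.0543%). In all, 1872 genes were at 0 in the hNSCs group alone, 414 in the control group alone, and 743 in both. Among the 6452 genes with counts in all 6 libraries, 580 were above (8.99%) and 337 below (5.22%) control without overlap. Their median log2 fold change was 0.10. This choice leaves out every gene at 0 in a group, more of them on the hNSCs side, so by itself it moves the balance toward higher genes. The TMM factors were 1.06, 1.09, and 0.993 in control and 0.809, 0.989, and 0.752 in hNSCs libraries, and a lower factor raises CPM. The part of either in this balance was not tested. Over all genes, 677 (4.6%) were above and 967 (6.57%) below. The number of annotated genes detected, given above, overlapped between the groups and had a mean of 11613 ± 1398 in the control and 9593 ± 815 in the hNSCs group (SD, n = 3), and its part in the lower genes was not tested.

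Pde7b, a cAMP phosphodiesterase, had 13.7, 8.91, and 23.0 CPM in the control libraries and 0 in all hNSCs libraries, at least 368-fold lower when the hNSCs group is set to a floor of 3 counts in all. Parp10, a mono-ADP-ribosyltransferase, had 28.9, 25.3, and 33.9 CPM in the control group and was at least 689-fold lower. Nenf, which encodes the secreted protein neudesin, had 43.7, 39.2, and 8.37 CPM and was at least 672-fold lower. The bounds for Bcat1 and Fbxo21 were 284-fold and 240-fold, and these 4 genes shared an adjusted p of 0.0656. The bounds cover counting error only, and reads without molecular identifiers are not independent molecules.

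Pde8a, Zc2hc1a, and Zfyve1 were also at 0 in the hNSCs group. Of the 10, Man1a1 and Aldh9a1 had counts in all libraries. Man1a1, a Golgi mannosidase of N-glycan trimming, had 109.7, 102, and 28.7 CPM against 3.46, 13.1, and 8.83 CPM (-3.24 ± 0.70, adjusted p = 0.201). Aldh9a1, an aldehyde dehydrogenase of carnitine synthesis, had 170.3, 141, and 114 CPM against 47.8, 25.8, and 26.5 CPM (-2.09 ± 0.45, adjusted p = 0.201). In both, every hNSCs library lay below every control library.

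Transcripts of liver secretory proteins were highest in control replicates 1 and 2. The list summed to 52776, 36975, and 6547 CPM in the control group and to 3461, 2383, and 17227 CPM in the hNSCs group. All 23 genes tested had a negative log2 fold change (median -1.93), beside 7868 of all 14720 genes. For none did the groups separate, since control replicate 3 was low and hNSCs replicate 3 high. Control replicates 1 and 2 were above the other 4 libraries in 22 of the 23, beside 2468 of the 14720 genes. Without control replicate 3, 22 of 23 were below control without overlap (20.4% of all genes), and without hNSCs replicate 3 it was 20 (11.9%). The median moved to -3.71 without hNSCs replicate 3 and to -1.40 without control replicate 1.

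Albumin (Alb) had 21927, 14259.8, and 1924 CPM against 1140.0, 798, and 6659 CPM (-2.15 ± 1.29, adjusted p = 0.553). Transferrin (Tf), the iron carrier of plasma, had 6465, 5691, and 1076 CPM against 535, 498, and 1517 CPM (-2.38 ± 0.88, adjusted p = 0.522). Tf, Ttr (transthyretin), and Rbp4 (retinol-binding protein) were the 3 of 23 genes of the list lower at an unadjusted p under 0.05, beside 6.43% of all genes tested. Apoe, made by liver, macrophages, and astrocytes, was likewise highest in control replicates 1 and 2, with 8458, 5271, and 1163 CPM against 639, 749, and 2786 CPM. In the other plasma groups the liver list ranged from 1264 CPM in 1 control library at day 4 to 73261 CPM in 1 hNSCs library of that day.

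Platelet and megakaryocyte transcripts were high in a single library. Their sum was 3589, 3899, and 3207 CPM in the control group and 3321, 3538, and 27197 CPM in the hNSCs group, so hNSCs replicates 1 and 2 lay within the control range. Of 24 genes tested, 22 had a positive log2 fold change, beside 6109 of all 14720 genes. The median of the list was 1.62, and it was 0.04 without hNSCs replicate 3. All 23 genes of the list with counts in these libraries were highest in hNSCs replicate 3, beside 2418 of the 14720 genes. Pf4, the platelet factor 4 chemokine, had 1205, 1609, and 976 CPM against 789, 1002, and 11718 CPM. Gp5 (a glycoprotein of the von Willebrand factor receptor) and Vwf (von Willebrand factor) were the 2 members higher at an unadjusted p under 0.05, beside 2.13% of all genes. Above control without overlap were 5 of the 24, beside 4.6% of all genes, and none was below. Sums as high in 1 library of a group were also found in healthy replicate 2 (34374 CPM against 3100 and 2463 CPM in the other healthy rats), in hNSCs replicate 3 of day 4 (35583 CPM), and in control replicate 1 of day 10 (41679 CPM).

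**Figure D3:**
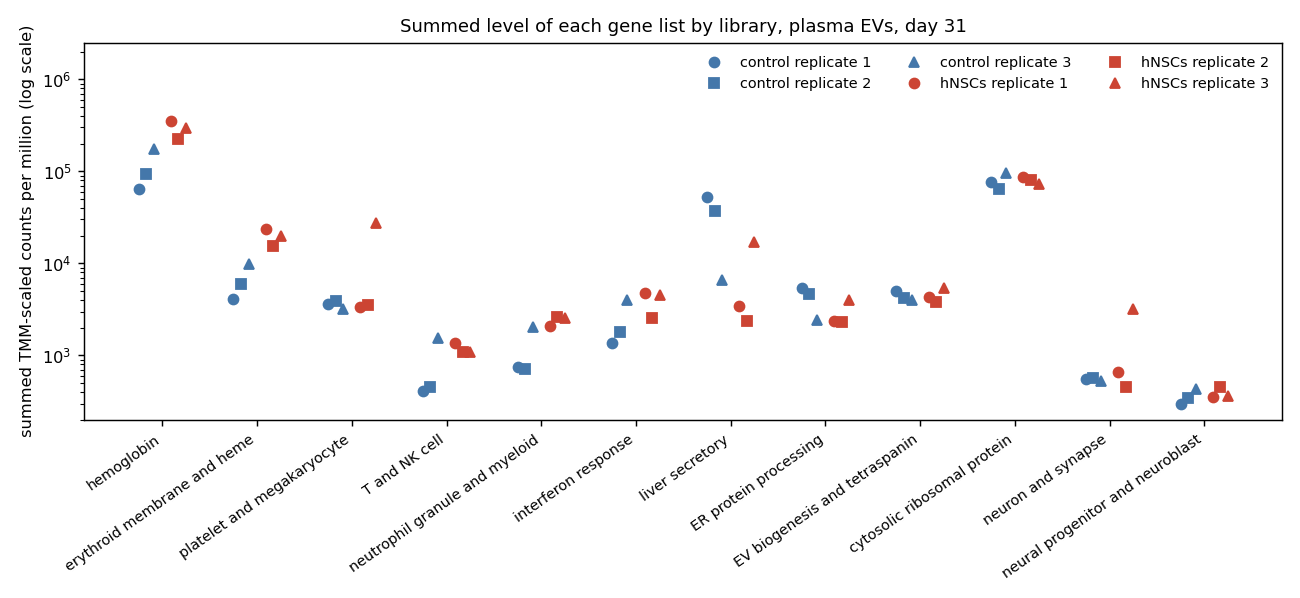
Summed CPM on a log axis of 12 gene lists in the 3 control and 3 hNSCs plasma libraries at day 31; each point is a library. The erythroid sums separate the groups (4092 to 9851 CPM against 15270.0 to 23693 CPM). So do the hemoglobin sums and, by less, the neutrophil sums (717 to 2016 CPM against 2063 to 2620 CPM). The sum over all genes tested, not drawn, also did (915686 to 1007460 CPM against 1011400 to 1328950 CPM). The liver list is high in 2 control libraries, and the platelet list is high in 1 hNSCs library.

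Most immune cell transcripts overlapped between the groups. The T and NK cell list had a median log2 fold change of 0.71 and summed to 411, 455, and 1554 CPM against 1349.5, 1083, and 1103 CPM. No member separated the groups, and 10 did without control replicate 3 (10.8% of all genes were above in that setting). The B cell and antigen presentation list had a median of 0.01, which was 1.42 without control replicate 3 and -0.69 without hNSCs replicate 2. Of 22 neutrophil and myeloid genes tested, 4 were higher at an unadjusted p under 0.05 (2.13% of all genes), 3 were above control without overlap (4.6%) and 1 below (6.57%), and the median was 0.50. Without control replicate 3 the median was 1.41.

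Fcer1g, the signaling chain of Fc receptors, had 196, 187, and 218 CPM against 303, 355, and 1088 CPM (1.54 ± 0.54, adjusted p = 0.522). Tyrobp, the adaptor DAP12 of myeloid receptors, had 78.9, 56.6, and 138 CPM against 189, 330.2, and 218 CPM (1.43 ± 0.60, adjusted p = 0.522). Both were separate between groups, and Fcer1g, which platelets also express, was highest in hNSCs replicate 3. The interferon response list had a median of 0.29. Of its 22 members tested, 1 was above without overlap (4.55%), near the 4.6% of all genes. This was Rsad2, an antiviral protein (159.9, 311, and 467 CPM against 1180.3, 606, and 1107 CPM). Without control replicate 3, 11 of the 22 members tested were above, beside 10.8% of all genes, and the median was 1.07.

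Vessel and muscle genes showed a few separate members. Of 16 endothelial and pericyte genes tested, 6 were above control without overlap (4.6% of all genes) and 1 below (6.57%), with a median of 0.46. Pecam1, the junction protein CD31 that platelets and leukocytes also carry, had 37.1, 35, and 60.5 CPM against 92.6, 71.8, and 112 CPM (1.06 ± 0.43, adjusted p = 0.522). The member below was Kdr, a receptor of vascular endothelial growth factor, with 71.5, 84.7, and 82.3 CPM against 56.2, 20, and 16.8 CPM (-1.36 ± 1.10, adjusted p = 0.802). Of 17 muscle genes tested, 5 were above without overlap (4.6% of all genes) and 1 below (6.57%), with a median of 0.37 that was 0.00 without control replicate 3. Myh6, the alpha myosin heavy chain of heart, had 157, 163, and 103 CPM against 254, 489, and 475 CPM (1.52 ± 1.01, adjusted p = 0.63). Myh7, Ttn, Tnnt2, and Actc1 were likewise above control in each hNSCs library. Other members went the other way. Of the 17, 10 had a positive and 6 a negative log2 fold change, beside 6109 and 7868 of all 14720 genes tested. In the hNSCs group alone, 3 were at 0. DESeq2 called 2 of the 17, Myh2 and Tnnt3, both lower, beside 9.1% of all genes called lower. On the angiogenesis and endothelial barrier list, with a median of -0.81, the tight junction scaffold Tjp1 had 218, 235, and 36.1 CPM against 72.6, 29.5, and 51.3 CPM, which overlapped. DESeq2 called 4 of the 23 genes tested on this list, Cldn5, Efnb2, Fgf2, and Pdgfb. All 4 were lower and at 0 in 1 group, beside 9.1% of all genes called lower. Cldn5 was also the only gene of the endothelial and pericyte list that DESeq2 called.

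Many neuron, neural progenitor, and oligodendrocyte genes had too few counts in plasma EVs to be tested. Only 15 of 25 neuron genes and 10 of 16 neural progenitor genes passed the filter on low counts, and Snap25 was not among them. Of the other brain lists, 6 of 14 oligodendrocyte, 12 of 14 astrocyte, and 14 of 14 microglia genes passed. The neuron list summed to 548, 569, and 528 CPM against 659, 451, and 3200.2 CPM, and most of the last value was Nrgn (272, 373, and 322 CPM against 394, 212, and 3052 CPM), a postsynaptic gene that platelets also carry. The medians were -0.27 for the neuron, -0.63 for the astrocyte, 0.61 for the oligodendrocyte, 0.25 for the microglia, and -0.97 for the neural progenitor list. These rest on few genes and on single libraries: the oligodendrocyte median was -0.17 without hNSCs replicate 3 and 1.26 without control replicate 3, the microglia median was -0.68 without hNSCs replicate 3, and the progenitor median was -0.32 without control replicate 2. Glul, glutamine synthetase of astrocytes and of other tissues, had 694, 643, and 1054 CPM against 1726, 1274, and 1583 CPM (0.94 ± 0.32, adjusted p = 0.522). The folate enzyme Aldh1l1, an astrocyte marker also found in liver, had 35.3, 21.5, and 16.8 CPM in the control group and 0 in the hNSCs group, at least 570-fold lower.

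Housekeeping lists had medians near 0. The median log2 fold change was 0.02 for 46 cytosolic ribosomal protein genes, none of which separated the groups, -0.04 for oxidative phosphorylation, -0.06 for the proteasome, -0.13 for cytosolic heat shock proteins, and -0.14 for the citrate cycle. Without overlap, 6 of 44 oxidative phosphorylation genes and 4 of 24 citrate cycle genes were below control, beside 6.57% of all genes, and 2 and 0 were above. Of the citrate cycle genes, 18 of 24 had a negative log2 fold change, beside 7868 of all 14720 genes. At an unadjusted p under 0.05, 3 of the 24 were lower, beside 6.43%. The median was also near 0 for immediate early genes (0.10), ion channels (0.00), and histones (-0.03, but 0.64 without control replicate 3). Rplp1, an acidic ribosomal stalk protein, had 6398, 5391, and 7136 CPM against 6005, 5832, and 6374 CPM (-0.06 ± 0.27). All 24 EV biogenesis and tetraspanin genes had counts in all 6 libraries, with a median of 0.29. Among them the tetraspanin Cd81 had 148, 136, and 25.0 CPM against 44.3, 40.5, and 17.2 CPM, with 1 low control library.

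Genes of protein folding in the endoplasmic reticulum (ER) had a median of -0.79. Of 25 tested, 4 were lower at an unadjusted p under 0.05 (6.43% of all genes) and 3 were below control without overlap (6.57%), Hspa5, Sec61a1, and Hyou1. Hspa5, the ER chaperone BiP, had 521, 274, and 157 CPM against 137, 51.4, and 133 CPM (-1.57 ± 0.69, adjusted p = 0.522). Without control replicate 3, 14 members were below, beside 20.4% of all genes. The highest levels were again in control replicates 1 and 2, the libraries with high liver transcripts, whose part in this was not tested. Calr, another ER chaperone, was at -0.02 ± 0.41.

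Antioxidant genes were divided, with a median of 0.09. Gpx1 and Prdx2, peroxide-removing enzymes abundant in red cells, were above control in each hNSCs library. Gpx1 had 952, 1183, and 1924 CPM against 3414, 2334, and 2838 CPM (1.08 ± 0.46, adjusted p = 0.522), and Prdx2 had 499, 462, and 1117 CPM against 1616, 1297, and 1758 CPM (1.17 ± 0.49, adjusted p = 0.522). Sod1, cytosolic superoxide dismutase, was below without overlap (264, 281, and 194 CPM against 171, 111, and 128 CPM). Prdx6, a peroxiredoxin with phospholipase activity, had 199, 238, and 95.3 CPM against 71.9, 24.5, and 97.3 CPM, which overlapped (-1.46 ± 0.53, adjusted p = 0.522).

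The mitosis and DNA replication list had a median of 0.61, and 5 of its 24 genes tested were above without overlap, beside 4.6% of all genes. Rrm1, a subunit of ribonucleotide reductase, had 12.6, 16.7, and 16.4 CPM against 41.4, 49.4, and 97.4 CPM (2.04 ± 0.59, adjusted p = 0.454). Of the genes named by the study for EV mRNA, 14 of 16 were tested, and Snap25 and Efnb3 had too few counts. Jun, a subunit of the AP-1 transcription factor, was below control in each hNSCs library (148, 87.3, and 85.8 CPM against 61.9, 69.6, and 69.3 CPM), with a log2 fold change of -0.68 ± 0.70. Map1b (-0.27 ± 0.52), Park7 (-0.10 ± 0.39), and Vim (-0.58 ± 0.47) overlapped between the groups, and S100b, a glial calcium-binding protein, was at 2.80 and 2.92 CPM in control replicates 1 and 2 and at 0 elsewhere.

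**Figure D4:**
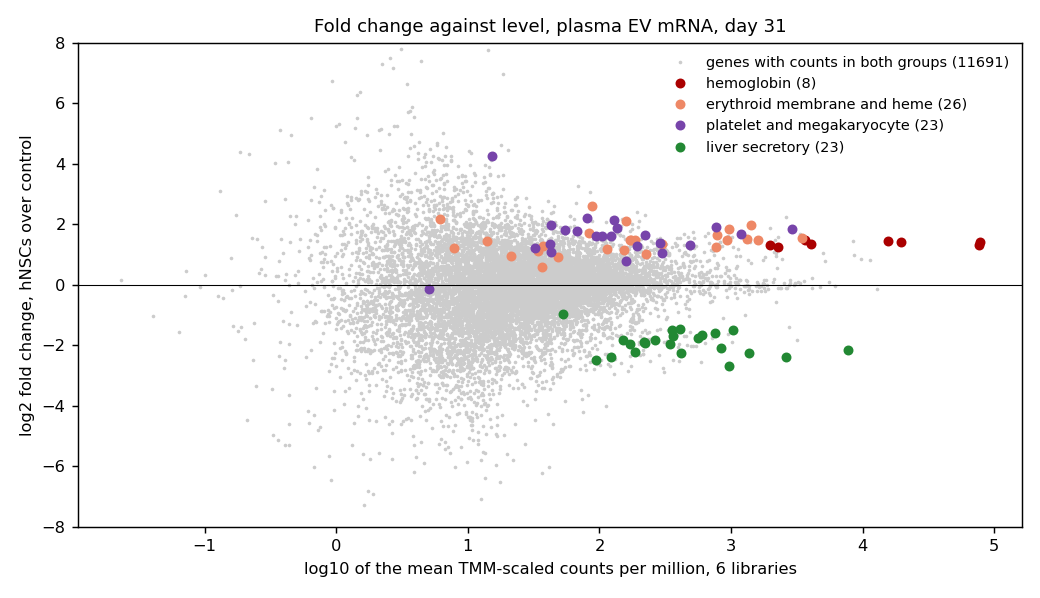
Log2 fold change of hNSCs over control at day 31 against mean CPM (log axis) for the 11691 tested genes with counts in both groups, 10 of which lie outside the plotted range; hemoglobin (8), erythroid (26), platelet (23), and liver (23) genes are colored. The hemoglobin genes lie at the right with a median of 1.37 and the liver genes lie below 0 with a median of -1.93.

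Whether the hNSCs effect at day 31 differed from that at the earlier days was tested as an interaction. Against day 4, 1 gene passed (0.00679%), Tpx2, a spindle assembly factor (adjusted p = 0.00262). At day 4 it had 12.7, 13.7, and 4.5 CPM in the control group and 0 in all 3 hNSCs libraries, whereas at day 31 it had 21.5, 13.7, and 55.7 CPM against 40.0, 59.9, and 62.4 CPM, which overlapped. At day 10 it had 25.6, 34.3, and 19.0 CPM against 113, 83.1, and 39.0 CPM. The call thus rests on zeros at day 4, and it held in 18 of 18 fits that were run (adjusted p from 3.19e-10 to 0.0233).

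At an unadjusted p under 0.05, 1466 genes (9.96%) differed between the effects at days 31 and 4, and all 8 hemoglobin genes tested were among them. Tspan33, a tetraspanin of erythroid and B cells, had 18.5, 19.9, and 16 CPM against 63.0, 216, and 174 CPM at day 31. Against day 10, no gene passed (0.0%, lowest adjusted p = 0.114), 1783 genes (12.1%) had an unadjusted p under 0.05, and no hemoglobin gene was among them. DESeq2 called 1758 and 2023 of the 14720 genes for these tests. The median hemoglobin log2 fold change was -0.51 at day 4 and 0.53 at day 10, beside 0.00 and 0.21 over all genes tested.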

How the data were processed

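EVs were isolated by size exclusion chromatography (one label speaks of serum, the rest of plasma), and libraries were made with a SMARTer stranded total RNA kit. Per the study's methods, the authors mapped reads by Bowtie2 on the rat (Rnor_6.0) or the human genome and computed FPKM with StringTie. The rat table lists 18782 annotated genes and 7855 entries named as new genes, whose origin is not given in the sources used here. The deposited counts are whole reads per gene without normalization, and the deposited FPKM values are the authors' and were used in alternatives only. The counting and strand settings are not given in the sources used here, and miRNA tables were not used here.

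Annotated genes were filtered with filterByExpr, scaled by TMM, and fitted with edgeR 4.0.16 (R 4.3.3) as 7 groups of 3 over the 21 plasma mRNA libraries, so that the groups shared 1 estimate of the spread. The study used limma, and the count unit decided the test here. P-values were adjusted by the Benjamini-Hochberg method, and a call needed an adjusted p under 0.05 and more than 1.5-fold. Shares were compared by exact permutation (SciPy 1.17.1). DESeq2 1.42.0 and limma 3.58.1 on log2(FPKM + 1) and log2(FPKM + 0.1) were alternatives. Scripts were tested on simulated counts with 200 changed genes. With each gene's spread (dispersion) taken from the real libraries, 1% of 4-fold and 28% of 16-fold changes were recovered. At a dispersion of 0.1, 96% and 100% were recovered.

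Named genes were the 10 with the smallest p in each direction, up to 4 of the highest members of each of 28 lists (569 of 638 genes tested), genes named by the study, the 5 of highest mean FPKM, and the 3 of smallest p in each interaction. Other list members, such as Fech, Trim58, Gata1, and Sod1, were named after their values were seen. The comparison and the lists were chosen with earlier results of these data known.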

Additional observations from a re-analysis of the deposited data

Results flagged for a closer look

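The hNSCs effect on Tpx2 differed between days 31 and 4 by the test of the difference itself (edgeR, adjusted p = 0.00262), with no counts in the 3 hNSCs libraries of day 4. For Hbb, Tyrobp, and Gpx1, all hNSCs libraries lay above all control libraries at day 31 and below them at day 4, and the test of the difference did not pass (adjusted p = 0.425 for each).

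The hemoglobin share of all counts, new genes included, was also in opposite order on these days. At day 31 it was 4.34, 6.45, and 10.7% in the control group and 18.4, 14.1, and 12.4% in the hNSCs group. At day 4 it was 2.08, 1.68, and 1.29% against 0.914, 0.521, and 0.923%. The difference of the 2 effects was 8.68 percentage points (7.78 at day 31 and -0.897 at day 4), and it was not tested.

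Tmem62 and Gmeb2 were in opposite order at days 31 and 10, with an adjusted p of 0.114 for each difference, which did not pass. Tmem62 had 4.13, 19.9, and 5.55 CPM in the control group and 0 in the hNSCs group at day 31, and 0 against 11.4, 3.56, and 8.53 CPM at day 10. Gmeb2 had 20.7, 7.47, and 9.75 CPM against 0 at day 31, and 0 against 17, 9.62, and 9.37 CPM at day 10. Dixon's test for outlying values was not run, since groups of 3 libraries are too small for it here.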

How the results depend on the processing

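The count of called genes at day 31 was 0 in edgeR with RLE factors, without the filter, with only the 6 libraries, with hemoglobin genes left out, with new genes kept, without the fold threshold, and in limma at a mean FPKM of at least 1. It was 1668 with DESeq2, 14 with limma on log2(FPKM + 1), and 4 on log2(FPKM + 0.1). Without 1 library it ranged from 0 to 24: 0 without any control library, 23, 7, and 24 without hNSCs replicates 1, 2, and 3. For the difference from day 4 the count was 1758 with DESeq2, 2 without the filter (Tspan33 and Tpx2), 1 with RLE factors or hemoglobin left out, and 1 to 39 without 1 library (39 without day 4 hNSCs replicate 3). For the difference from day 10 it was 2023 with DESeq2, 0 to 21 without 1 library (21 without day 31 hNSCs replicate 3), and 0 otherwise. The cause of these changes was not tested. The difference in annotated share of -1.02 percentage points was 7.39 with summed FPKM and ranged from -2.53 to 1.64 without 1 library (1.64 without hNSCs replicate 3). The hemoglobin difference of 12.7 percentage points was 7.78 over all counts, 19.6 in summed FPKM, 12.8 with all hemoglobin names (chosen after seeing the data), and 10.3 to 15.6 without 1 library. The lists without 1 library and their medians over the fits were also chosen after seeing the data. Of 137 named genes, 101 kept their direction in all 16 other fits, and at most 15 turned in any 1 of them. None was called in the other direction. RLE factors moved the median of all genes to -0.19 and leaving out hemoglobin to -0.17.

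Replicate numbers did not pair the samples (correlations of same-numbered deviations -0.032, -0.064, and -0.116), and the fit with the replicate number as a block gave 0, 1, and 0 calls. With 3 libraries a group, low-level genes at 0 in a group limit what these data can show.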
